A study of Mus musculus with 36 samples.

Results

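The genes described here make cholesterol, sense it or move it in the liver. They were chosen by name as a list of 31 genes: 19 enzymes on the way from acetyl units to cholesterol, 4 regulators that respond to the sterol content of membranes, and 8 genes of cholesterol movement, uptake, esterification and receptor turnover. A gene was measured by its brightest probe, provided that the probe was well above background on at least 6 of 36 arrays. Of the 31 genes, 30 had a probe carrying their name and 29 were measured and tested, among 22916 genes tested in all. Acat2, a cytosolic thiolase, had no probe under that name, and Npc1l1, which takes up free sterol, was well above background on no array. All 29 measured genes were well above background on all 36 arrays.

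Livers came from 36 male mice aged 11 weeks, 6 in each of 6 groups, which ate standard chow freely and received no treatment according to the labels. The knockout mice (IRLKO, or IRhep-/-) had LoxP sites around the fourth exon of the insulin receptor gene Insr (IRlox/lox) and came from crosses with C57BL/6J mice carrying TTR-CreTam, a tamoxifen-inducible Cre driven by the transthyretin promoter, and the deletion is described as specific to hepatocytes. The controls (IRLWT, or IRhep+/+) had an intact receptor. The labels say neither when tamoxifen was given nor whether controls carried Cre, so effects of either cannot be told apart from loss of the receptor. Livers were taken at Zeitgeber time (ZT) 8, in the light phase, at ZT12, when lights went off, and at ZT16, in the dark phase. Each mouse gave 1 single-colour Agilent array, so the spread reported is between mice.

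Cholesterol is built from acetyl-CoA through mevalonate, isoprenoids, squalene and lanosterol, by enzymes whose genes are driven mainly by the transcription factor SREBP-2. SCAP carries SREBP from the endoplasmic reticulum to the Golgi apparatus when membrane sterol is low, and the INSIG proteins hold SCAP back when sterol is high. In liver, insulin is known to raise the related factor SREBP-1c and to lower a liver transcript of Insig2.

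The letters near the start sites are shown first because SREBP and its partner NF-Y act through short motifs in such promoters. RefSeq promoters (GRCm38.p6, 250 bases before to 50 after each start) were found for 24 of the 31 genes and numbered 30. The letters TCACNCCAC, a sterol regulatory motif, occurred on either strand in 1 of the 30 (3.33%), against 1.21% of 15891 promoters of all genes tested. That promoter belonged to Hmgcs1, which makes HMG-CoA, with the match from -137 to -129 relative to the start. The E-box letters CACGTG, which SREBP proteins can also bind, occurred in 6 of the 30 promoters (20%), belonging to Hsd17b7, Sc5d, Dhcr7, Scap and Insig1, against 8.95% for genes tested. Both Scap promoters, which overlap, held the same E-box, so that site was counted more than once. In the 250 bases before the start, 5 promoters held the letters (16.7%, against 7.49%). The letters CCAAT, bound by NF-Y, occurred in 70.0% against 37.4%, and the GC box GGGCGG, bound by Sp1, in 80.0% against 53.8%. The 250 bases before the start are printed for Hmgcs1 and for 3 genes chosen after their values were seen: Mvd and Insig1, which were lower in knockouts at all 3 times, and Scap, which was higher at ZT12 and ZT16. Capitals mark TCACNCCAC, CACGTG and CCAAT on either strand, so that ATTGG is CCAAT read on the other strand.
Hmgcs1 (chr13:119690101-119690350, + strand): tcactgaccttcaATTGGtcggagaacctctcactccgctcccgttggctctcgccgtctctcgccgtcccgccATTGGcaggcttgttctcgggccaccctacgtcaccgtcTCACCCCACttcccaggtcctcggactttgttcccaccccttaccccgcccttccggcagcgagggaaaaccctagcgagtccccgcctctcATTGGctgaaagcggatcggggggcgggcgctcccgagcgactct
Mvd (chr8:122443423-122443672, - strand): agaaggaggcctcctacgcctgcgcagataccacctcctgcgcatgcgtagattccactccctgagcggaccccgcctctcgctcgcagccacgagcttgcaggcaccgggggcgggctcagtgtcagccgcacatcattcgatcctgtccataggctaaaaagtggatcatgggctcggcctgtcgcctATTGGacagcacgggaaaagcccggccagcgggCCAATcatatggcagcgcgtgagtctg
Insig1 (chr5:28071162-28071411, + strand): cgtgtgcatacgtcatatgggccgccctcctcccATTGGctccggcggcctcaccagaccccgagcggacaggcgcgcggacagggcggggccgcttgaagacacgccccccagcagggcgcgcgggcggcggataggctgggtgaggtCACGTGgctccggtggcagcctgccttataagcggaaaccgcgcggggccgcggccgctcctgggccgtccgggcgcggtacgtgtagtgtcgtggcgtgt
Scap (chr9:110333106-110333355, + strand): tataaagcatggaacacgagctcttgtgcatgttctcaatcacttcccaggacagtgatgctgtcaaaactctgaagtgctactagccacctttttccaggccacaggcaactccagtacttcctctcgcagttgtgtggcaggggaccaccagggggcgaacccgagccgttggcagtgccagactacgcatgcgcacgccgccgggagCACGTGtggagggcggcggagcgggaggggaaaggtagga

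The Hmgcs1 sequence held 1 sterol regulatory match and 3 CCAAT matches, and the Mvd sequence held 2 CCAAT matches. The Insig1 sequence held 1 CCAAT from -216 to -212 and 1 E-box from -101 to -96. The Scap sequence held an E-box from -40 to -35 and no CCAAT. Another Scap promoter, not printed (chr9:110333038-110333287), held none of these motifs before its start. There the same E-box lay after the start, from 28 to 33. These are matches of letters, and binding was not measured.

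Insr itself was low in the knockouts. On the log2 scale, with the 75th percentile of each array set to 0, its signal was -1.81 to -1.01 (median -1.40) in controls and -3.54 to -2.94 (median -3.05) in knockouts at ZT8. No knockout reached a control at any time, and the signal was 3.42-fold, 3.68-fold and 3.15-fold lower at ZT8, ZT12 and ZT16 (adjusted p 1.2e-11, 2.1e-12 and 2.9e-11). Adjusted p-values here and below are from limma, with Benjamini-Hochberg adjustment over the 22916 genes, and a gene with an adjusted p under 0.05 is called. The Insr probe lies at chr8:3155472-3155531 of mm9. Whether it reads the deleted exon was not determined, so it gives the transcript level and is no check of the deletion itself. Over the arrays, 53.7% to 63.1% of spots were well above background and the 75th percentile was 311 to 525 intensity units.

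The sterol genes called at each time were mostly lower in knockouts. At ZT8 the test called 21 of the 29 genes, 19 lower and 2 higher in knockouts, where 35.5% of all genes tested were called, 18.7% lower and 16.7% higher. At ZT12 it called 23, of which 18 were lower and 5 higher, against 42.3% of all genes, 22.7% lower and 19.6% higher. At ZT16 it called 23, of which 19 were lower and 4 higher, against 40.0%, 20.1% lower and 20% higher. The median log2 difference over the 29 genes was -0.63, -0.58 and -0.60 at the 3 times, while over all genes tested it was 0.01, -0.02 and 0.00. The ZT8 count depended on which arrays were fitted: 13 genes were called when only the 12 ZT8 arrays were fitted. That fit called 6288 of all genes, against 8128 in the reported fit, and the cause of the drop was not tested. In that fit Hmgcs1, Idi1, Sqle, Cyp51, Msmo1, Dhcr7, Tmem97 and Npc1 lost their calls. In whole liver, fewer cells of a type and less RNA per cell cannot be told apart.

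The genes called lower at all 3 times numbered 14, against 10.6% of all genes. They were Aacs, Pmvk, Mvd, Fdps, Sqle, Tm7sf2, Nsdhl, Ebp, Sc5d, Dhcr7, Insig1, Stard4, Tmem97 and Soat2. Npc1 and Scarb1 were called higher at all 3 times, against 8.91% of all genes. Scap, Npc2 and Mylip were called higher at 1 or 2 times, no gene was called in both directions, and Mvk and Lss were called at no time by their brightest probes (the second Mvk probe was called lower each time). Hmgcs1 and Idi1 were called lower at ZT8 alone, which does not show that their effect differed between times. At ZT8, 10 of the 29 genes were called at least 2-fold lower (2.67% of all genes), followed by 7 at ZT12 (3.60%) and 7 at ZT16 (3.11%). All 6 knockouts lay below all 6 controls for 8, 8 and 9 genes (9.41%, 13.0% and 10% of all genes).

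**Figure D1:**
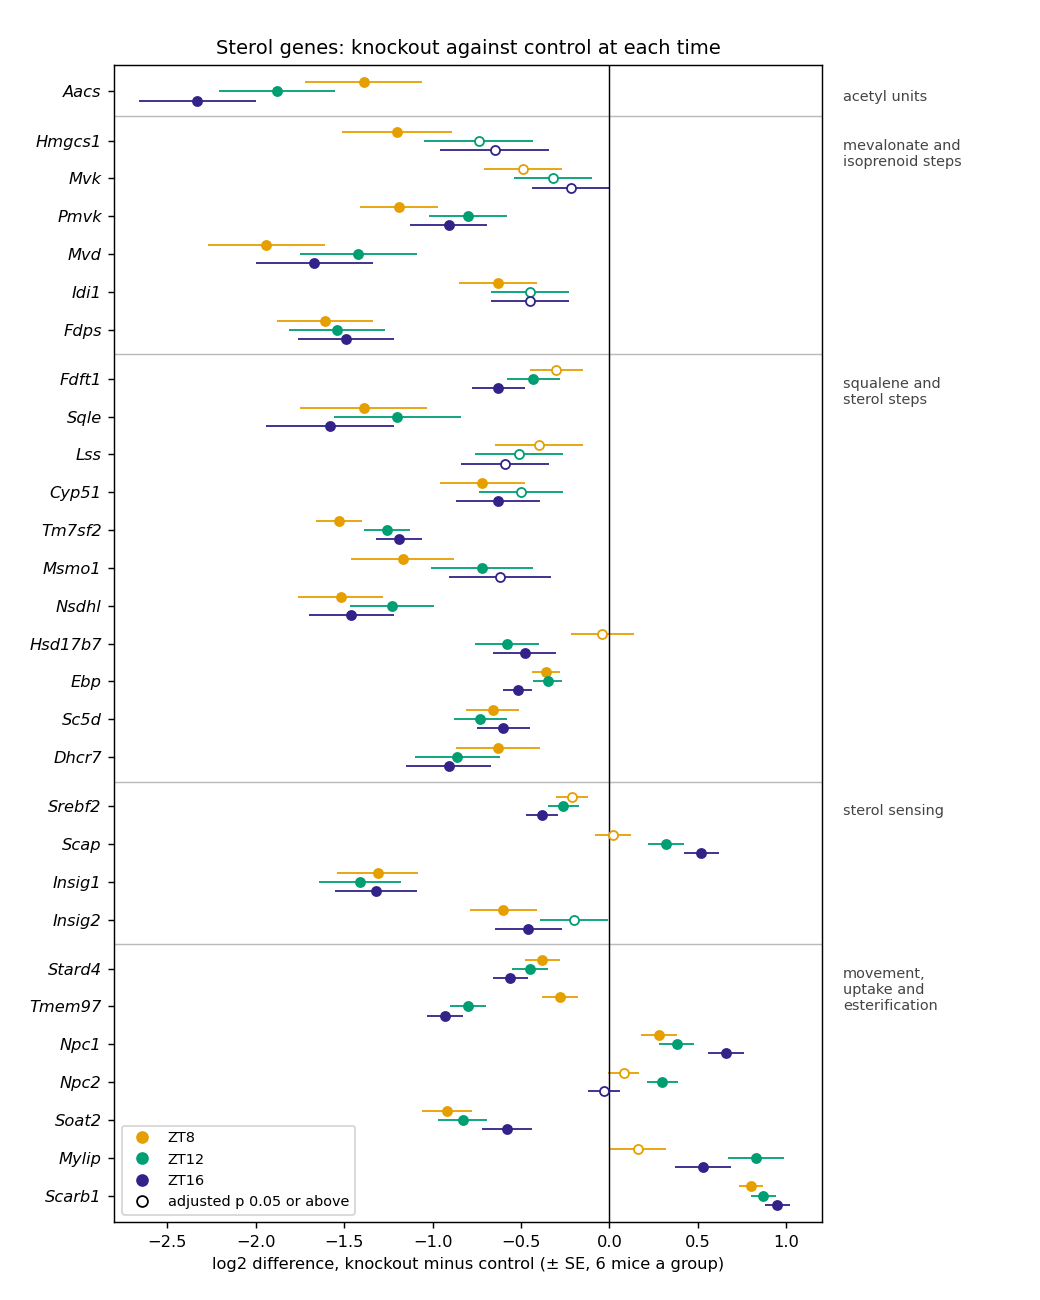
Log2 difference between knockout and control mice (x axis, mean difference ± SE, 6 mice in each group) for the 29 measured genes (y axis), grouped by role and coloured by time. Filled points had an adjusted p under 0.05; every enzyme lies below 0 at each time, and Npc1, Mylip, Scap and Scarb1 lie above 0 at all 3 times.

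Aacs, which activates acetoacetate for lipid synthesis in the cytosol, had the largest fall of the list at ZT12 and ZT16. Aacs was 3.1 to 4.85 (median 4.27) in controls and 2.19 to 3.68 (median 2.69) in knockouts at ZT8. It was 4.29 to 5.77 (median 5.26) in controls and 2.27 to 3.89 (median 3.28) in knockouts at ZT12. Its values were 3.84 to 5.80 (median 4.44) in controls and 1.74 to 2.82 (median 2.30) in knockouts at ZT16. The groups overlapped at ZT8, with 4 of 6 knockouts under the lowest control, and did not overlap later. Its signal was 2.63-fold, 3.67-fold and 5.03-fold lower (log2 -1.39, -1.88 and -2.33, each with SE 0.33; adjusted p 0.00132, 3.3e-05 and 1.4e-06; exact two-sided permutation p 0.0108, 0.00216 and 0.00216). The smallest p that 6 against 6 mice allow is 0.00216. The change in this difference from ZT8 to ZT16 did not pass its own test (log2 -0.93, SE 0.47, adjusted p 0.231). Its probe lies at chr5:125997524-125997583 of mm9.

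The list holds 6 enzymes, but not all, of the route from HMG-CoA synthase to farnesyl diphosphate, which turns acetyl units into isoprenoids. Of these, 5 were called lower at ZT8 and 3 at ZT12 and ZT16, with median log2 differences of -1.19, -0.77 and -0.78. The shares of all genes called lower were 18.7%, 22.7% and 20.1%. Mvd, which decarboxylates mevalonate diphosphate, was 0.29 to 1.53 in controls and -1.88 to 0.14 in knockouts at ZT8. It fell 3.83-fold, 2.68-fold and 3.19-fold (adjusted p 2.6e-05, 8.4e-04 and 1.5e-04) and its groups did not overlap at any time. Fdps, which makes farnesyl diphosphate, fell 3.04-fold, 2.9-fold and 2.81-fold (adjusted p 2.2e-05, 3.2e-05 and 5.1e-05), also without overlap. Mvd, Fdps, Sqle and Nsdhl are given with values as examples chosen after their values were seen.

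Pmvk, the second kinase of the mevalonate route, fell 2.27-fold, 1.74-fold and 1.88-fold (adjusted p 7.2e-05, 0.00371 and 0.00116), and its groups overlapped each time. Hmgcs1 fell 2.30-fold at ZT8 (adjusted p 0.00323), and its log2 differences of -0.74 and -0.65 at ZT12 and ZT16 did not pass (0.0582 and 0.1). The ZT8 call of Hmgcs1 was lost when only the 12 ZT8 arrays were fitted (adjusted p 0.0655). Idi1, which interconverts the isoprenoid building blocks, had -0.63, -0.45 and -0.45 (adjusted p 0.0236, 0.0962 and 0.104). Mvk, the first kinase, had -0.49, -0.32 and -0.22 (adjusted p 0.0753, 0.247 and 0.45), but its next brightest probe was called lower each time, with -0.88, -0.71 and -0.68 (adjusted p 0.0126, 0.0372 and 0.0479). Among these 6 enzymes, measured by their brightest probes, Mvd and Fdps had the 2 largest differences at each time, and Mvk the smallest at ZT8, ZT12 and ZT16.

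The 11 listed enzymes from squalene to cholesterol had 8, 9 and 9 genes called lower at ZT8, ZT12 and ZT16 and none called higher. Tm7sf2, a sterol C14 reductase, had the smallest adjusted p of the list at ZT8. Tm7sf2 was 5.79 to 6.12 (median 5.95) in controls and 4.02 to 4.89 (median 4.35) in knockouts at ZT8. It was 5.50 to 6.28 (median 5.94) in controls and 4.31 to 4.94 (median 4.66) in knockouts at ZT12. Its values were 5.84 to 6.19 (median 6.01) in controls and 4.58 to 4.93 (median 4.85) in knockouts at ZT16. Every knockout lay below every control at each time. The fall was 2.89-fold, 2.39-fold and 2.28-fold (log2 -1.53, -1.26 and -1.19, each with SE 0.13; adjusted p 7.8e-11, 2.9e-09 and 7.2e-09; exact two-sided permutation p 0.00216, 0.00216 and 0.00216). Its probe lies at chr19:6062882-6062941 of mm9.

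Nsdhl, which acts with Msmo1 in removing the C4 methyl groups, fell 2.87-fold, 2.35-fold and 2.76-fold (adjusted p 9.7e-06, 1.3e-04 and 1.5e-05) with no overlap at any time. Its next brightest probe gave -1.5, -0.59 and -1.22 (adjusted p 1.5e-04, 0.1 and 0.00119), so the call at ZT12 depended on the probe. Msmo1 fell 2.24-fold at ZT8 and 1.65-fold at ZT12 (adjusted p 0.0022 and 0.0469), and its -0.62 at ZT16 did not pass (0.0873). Sqle, which oxidises squalene at a control point of the route, fell 2.62-fold, 2.29-fold and 2.99-fold (adjusted p 0.0034, 0.0088 and 8.9e-04), and its groups were apart only at ZT16. Tm7sf2, Nsdhl and Sqle were the genes of this stretch called at least 2-fold lower at all 3 times by their brightest probes. When only the 12 ZT8 arrays were fitted, Sqle and Msmo1 lost their ZT8 calls (adjusted p 0.104 and 0.0772).

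Ebp, a sterol isomerase, fell by less, 1.28-fold, 1.27-fold and 1.44-fold, with an SE of 0.08 on the log2 scale (adjusted p 0.00137, 0.00147 and 1.2e-05). Sc5d, a sterol desaturase, fell 1.58-fold, 1.65-fold and 1.52-fold, and Dhcr7, which makes cholesterol from 7-dehydrocholesterol, fell 1.55-fold, 1.82-fold and 1.89-fold. The ZT8 call of Dhcr7 was lost in 6 of 11 alternative settings, among them quantile normalization and the value table deposited by the authors. Fdft1, the squalene synthase, was called at ZT12 and ZT16 (log2 -0.43 and -0.63) and had -0.30 at ZT8 (adjusted p 0.108). Hsd17b7, a sterol ketoreductase, had -0.04 at ZT8 (0.895) and was called at ZT12 and ZT16 (-0.58 and -0.48). Cyp51, which removes the C14 methyl group, was called at ZT8 and ZT16 (-0.72 and -0.63) and had -0.50 at ZT12 (0.0948). Lss, which closes the lanosterol rings, had -0.40, -0.51 and -0.59 and passed at no time (0.219, 0.0962 and 0.0598).

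**Figure D2:**
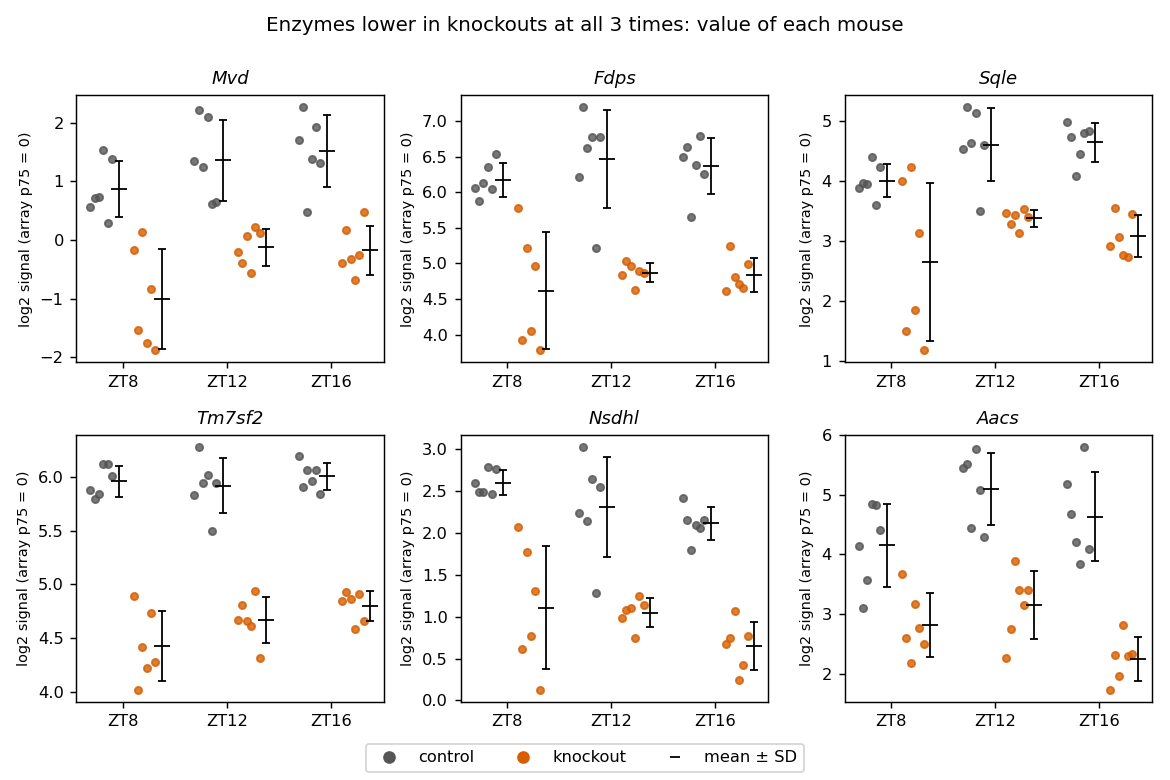
Log2 signal of each mouse (y axis, array 75th percentile set to 0, own scale per gene) for 6 enzymes called lower at all 3 times, by time (x axis). Grey points are controls, orange points knockouts, and bars give mean ± SD of 6 mice; Sqle ran from 1.18 to 4.23 among ZT8 knockouts and from 3.14 to 3.54 among ZT12 knockouts.

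Mice of 1 group differed over the listed enzymes of the route, and most among the ZT8 knockouts. The SD over 6 mice, as a median over the 17 listed enzymes from Hmgcs1 to Dhcr7, was 0.70 in ZT8 knockouts and 0.24 in ZT8 controls. All 17 enzymes had the larger SD in the knockouts at ZT8. At ZT12 the order was turned, with median SDs of 0.17 in knockouts and 0.44 in controls, and 0 of 17 enzymes had the larger SD in knockouts. At ZT16 both were 0.32. Over all genes tested the median SD in knockouts and controls was 0.27 and 0.18 at ZT8, 0.23 and 0.20 at ZT12, and 0.22 and 0.23 at ZT16. These spreads are a description and were not tested.

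The enzymes of a mouse lay high or low together. Sqle in the 6 ZT8 knockouts, replicates 1 to 6, was 4.00, 1.5, 4.23, 1.86, 3.14 and 1.18, and Hmgcs1 was 6.10, 3.93, 6.01, 4.22, 5.15 and 4.19. Replicates 1 and 3 lay within the control range for both genes and replicates 2, 4, 5 and 6 below it. Replicate 1 of these knockouts was the highest of its group for 13 of the 17 enzymes and replicate 6 the lowest for 11. Control ZT12 replicate 5 was the lowest control for all 17, with a median deviation of -0.75 from its group's mean, and control ZT16 replicate 3 was lowest for 16 (median deviation -0.54). On control ZT12 replicate 5, 55.2% of spots were well above background, against 58.4% to 58.9% on the other controls of that time. Control ZT16 replicate 3 had 58.1%, within the 54.7% to 59.2% of its group. Without control ZT12 replicate 5, 27 of the 29 genes were called at ZT12, among them Hmgcs1 (-0.95), Idi1 (-0.62), Lss (-0.67) and Cyp51 (-0.64). In that fit 8907 of all genes were called, against 9691 with all mice. At ZT8, 16 genes were called without knockout ZT8 replicate 2 or 6 and 17 without knockout or control ZT8 replicate 4, whereas 22 were called without knockout ZT8 replicate 3 and 23 without knockout ZT8 replicate 1. These fits called 7299 to 8507 of all genes, against 8128 with all mice. What set these mice apart was not tested.

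**Figure D3:**
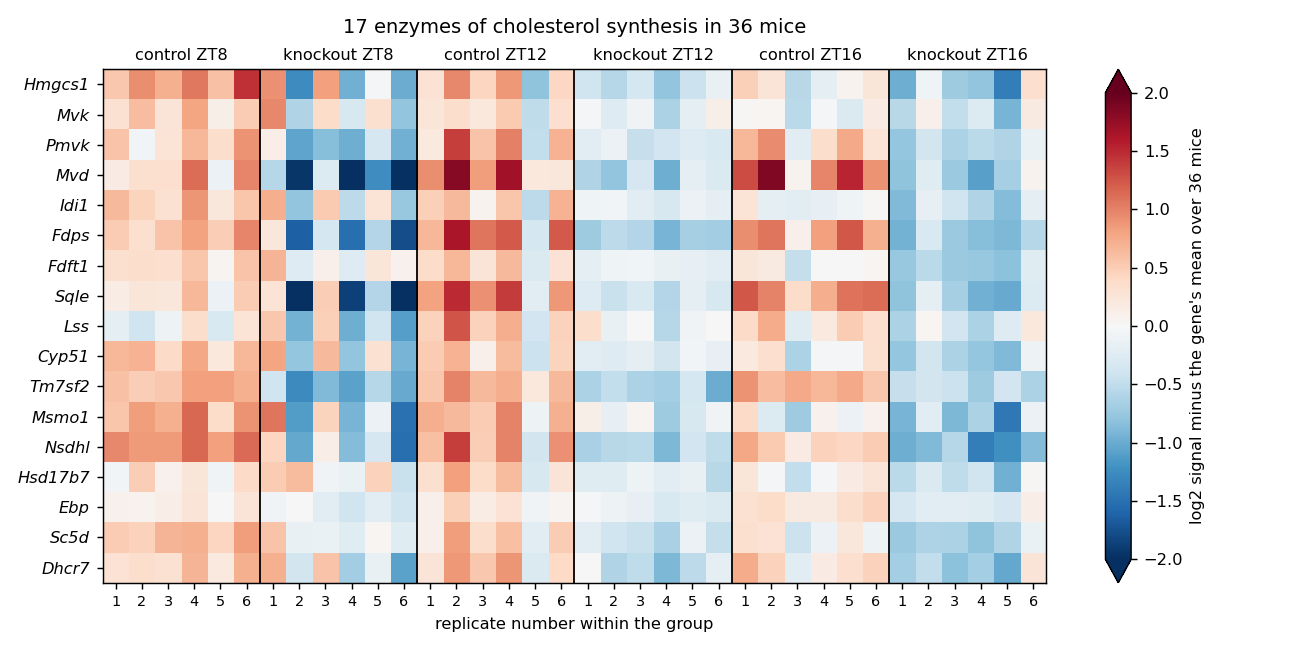
Log2 signal of 17 enzymes (rows) in 36 mice (columns, numbered within group), coloured as the difference from the gene's mean over all mice, red above and blue below. The enzymes of a mouse tend to share a colour, and the ZT8 knockouts, with a median SD of 0.70, hold columns of both colours.

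Sterol sensing genes did not move as one group. Insig1, a sterol-dependent gene whose protein retains SCAP, was lower at all 3 times. Insig1 was 1.33 to 2.03 (median 1.64) in controls and -0.15 to 0.93 (median 0.37) in knockouts at ZT8. It was 1.45 to 3.03 (median 2.41) in controls and 0.27 to 1.28 (median 0.93) in knockouts at ZT12. Its values were 0.97 to 2.24 (median 2.03) in controls and -0.10 to 0.98 (median 0.52) in knockouts at ZT16. Only at ZT16 did the groups overlap, where 1 knockout lay above the lowest control. The fall was 2.47-fold, 2.65-fold and 2.5-fold (log2 -1.31, -1.41 and -1.32, each with SE 0.23; adjusted p 3.8e-05, 9.8e-06 and 2.7e-05; exact two-sided permutation p 0.00216, 0.00216 and 0.00433). Its probe lies at chr5:28404246-28404305 of mm9.

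Insig2, the other INSIG gene, was called lower at ZT8 and ZT16. Insig2 was 3.30 to 3.81 (median 3.44) in controls and 2.79 to 3.05 (median 2.86) in knockouts at ZT8. It was 2.92 to 4.31 (median 3.61) in controls and 3.15 to 3.76 (median 3.37) in knockouts at ZT12. Its values were 3.90 to 4.78 (median 4.21) in controls and 3.51 to 4.18 (median 3.71) in knockouts at ZT16. The groups were apart at ZT8, all knockouts lay within the range of the controls at ZT12, and the groups overlapped at ZT16. Its signal differed by -0.60, -0.20 and -0.46 (log2, each with SE 0.19; adjusted p 0.0121, 0.415 and 0.049; exact two-sided permutation p 0.00216, 0.485 and 0.0346). The ZT16 call of Insig2 was lost in 6 of 12 alternative settings, among them quantile normalization and the value table deposited by the authors. The probe, at chr1:123201085-123201144 of mm9, carries the name of a RefSeq transcript, but which of the gene's transcripts it reads was not determined. The next brightest Insig2 probe, named for another transcript, lies at chr1:123201071-123201130 and overlaps it.

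Srebf2, which encodes SREBP-2, showed small differences. Srebf2 was 1.28 to 1.46 (median 1.41) in controls and 0.96 to 1.62 (median 1.17) in knockouts at ZT8. It was 1.28 to 1.67 (median 1.51) in controls and 1.08 to 1.41 (median 1.20) in knockouts at ZT12. Its values were 1.45 to 1.89 (median 1.54) in controls and 1.06 to 1.49 (median 1.16) in knockouts at ZT16. The groups overlapped at each time. The log2 differences were -0.21, -0.26 and -0.38 (each with SE 0.09; adjusted p 0.0717, 0.0234 and 0.00151; exact two-sided permutation p 0.0671, 0.00649 and 0.00649). The next brightest Srebf2 probe gave 0.15, 0.22 and -0.30 (adjusted p 0.419, 0.18 and 0.0685), so the direction at ZT8 and ZT12 and the call at ZT16 depended on the probe. The probe used lies at chr15:82035495-82035554 of mm9.

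Scap, the sterol sensor that escorts SREBP, was higher in knockouts at the later times. Scap was 4.95 to 5.29 (median 5.04) in controls and 4.70 to 5.38 (median 5.15) in knockouts at ZT8. It was 4.30 to 4.63 (median 4.51) in controls and 4.53 to 4.89 (median 4.84) in knockouts at ZT12. Its values were 3.94 to 4.24 (median 4.18) in controls and 4.45 to 4.82 (median 4.65) in knockouts at ZT16. The groups overlapped at ZT8, 5 of 6 knockouts exceeded all controls at ZT12, and the groups were apart at ZT16. The differences were 0.02, 0.32 and 0.52 (log2, each with SE 0.10; adjusted p 0.89, 0.00813 and 7.9e-05; exact two-sided permutation p 0.844, 0.00649 and 0.00216). From ZT8 to ZT16 its signal fell by 0.94 in controls and by 0.45 in knockouts.

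The change of the Scap genotype effect from ZT8 to ZT16 was 0.49 (SE 0.14, adjusted p 0.0176), where 9.74% of all genes were called and 5.44% upward. A moderated F test over the 3 times gave an adjusted p of 0.0492, with 8.46% of all genes called. The F test lost the call when any 1 of 29 of the 36 mice was left out, whereas the ZT16 minus ZT8 value kept it in each of the 24 fits that left out a ZT8 or ZT16 mouse. The Scap probe lies at chr9:110287280-110287339 of mm9.

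**Figure D4:**
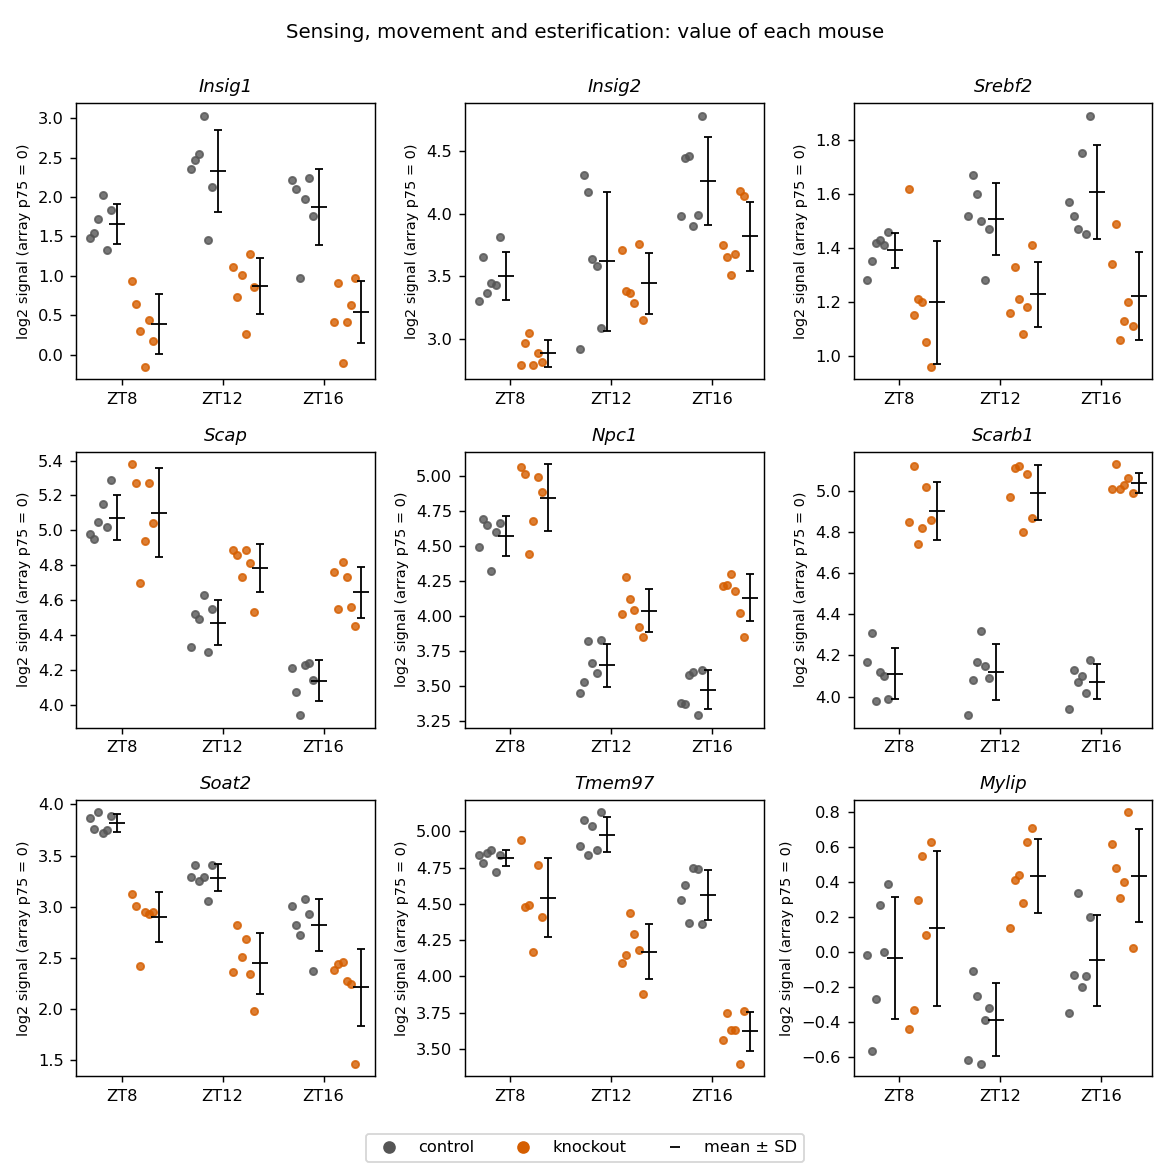
Log2 signal of each mouse (y axis, array 75th percentile set to 0, own scale per gene) for 9 genes of sterol sensing, movement, uptake and esterification by time (x axis). Grey points are controls, orange points knockouts, and bars give mean ± SD of 6 mice; Scarb1 knockouts lie from 4.74 to 5.13 and controls from 3.91 to 4.32 over the 3 times.

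Genes that take up, move or esterify cholesterol fell on both sides. Scarb1, which encodes the HDL receptor SR-BI, had the smallest adjusted p of the list at ZT12 and ZT16. Scarb1 was 3.98 to 4.31 (median 4.11) in controls and 4.74 to 5.12 (median 4.85) in knockouts at ZT8. It was 3.91 to 4.32 (median 4.12) in controls and 4.80 to 5.12 (median 5.03) in knockouts at ZT12. Its values were 3.94 to 4.18 (median 4.08) in controls and 4.99 to 5.13 (median 5.02) in knockouts at ZT16. All knockouts exceeded all controls, as they did for 6.12%, 8.39% and 9.22% of all genes at the 3 times. The signal was 1.74-fold, 1.82-fold and 1.94-fold higher (log2 0.80, 0.87 and 0.95, each with SE 0.07; adjusted p 7.9e-10, 1.1e-10 and 1.2e-11; exact two-sided permutation p 0.00216, 0.00216 and 0.00216). The probe lies at chr5:125757483-125757542 of mm9.

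Npc1, which exports cholesterol from lysosomes, was also higher at all 3 times. Npc1 was 4.32 to 4.69 (median 4.63) in controls and 4.44 to 5.06 (median 4.93) in knockouts at ZT8. It was 3.45 to 3.83 (median 3.62) in controls and 3.85 to 4.28 (median 4.03) in knockouts at ZT12. Its values were 3.29 to 3.61 (median 3.48) in controls and 3.85 to 4.30 (median 4.20) in knockouts at ZT16. The groups overlapped at ZT8 and not afterwards. The signal was 1.22-fold, 1.30-fold and 1.58-fold higher (log2 0.28, 0.38 and 0.66, each with SE 0.10; adjusted p 0.0304, 0.00305 and 5.2e-06; exact two-sided permutation p 0.039, 0.00216 and 0.00216). The next brightest Npc1 probe gave -0.25, 0.54 and 0.95 (adjusted p 0.452, 0.0754 and 0.00274), so the direction at ZT8 and the call at ZT12 depended on the probe.

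Npc2, the partner of Npc1 in the lysosome, was called higher at ZT12 alone. Npc2 was 2.36 to 2.76 (median 2.54) in controls and 2.43 to 2.75 (median 2.68) in knockouts at ZT8. It was 2.18 to 2.67 (median 2.48) in controls and 2.58 to 2.93 (median 2.77) in knockouts at ZT12. Its values were 2.21 to 2.88 (median 2.63) in controls and 2.42 to 2.74 (median 2.55) in knockouts at ZT16. The groups overlapped each time, with 4 of 6 knockouts above all controls at ZT12. The differences were 0.08, 0.30 and -0.03 (log2, each with SE 0.09; adjusted p 0.517, 0.00651 and 0.797; exact two-sided permutation p 0.249, 0.0108 and 0.584). The probe lies at chr12:86097947-86098006 of mm9.

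Mylip encodes IDOL, a ubiquitin ligase of lipoprotein receptors that is induced by the sterol receptor LXR. Its signal was -0.57 to 0.39 (median -0.01) in controls and -0.44 to 0.63 (median 0.20) in knockouts at ZT8. It was -0.64 to -0.11 (median -0.35) in controls and 0.14 to 0.71 (median 0.43) in knockouts at ZT12. Its values were -0.35 to 0.34 (median -0.13) in controls and 0.02 to 0.80 (median 0.44) in knockouts at ZT16. The groups were apart at ZT12 and overlapped at ZT8 and ZT16. The differences were 0.16, 0.83 and 0.53 (log2, each with SE 0.16; adjusted p 0.484, 1.2e-04 and 0.00954; exact two-sided permutation p 0.478, 0.00216 and 0.0152). The probe lies at chr13:45506979-45507038 of mm9.

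Soat2, which esterifies cholesterol in hepatocytes, was lower at all 3 times. Soat2 was 3.72 to 3.92 (median 3.82) in controls and 2.42 to 3.12 (median 2.95) in knockouts at ZT8. It was 3.06 to 3.41 (median 3.29) in controls and 1.98 to 2.82 (median 2.44) in knockouts at ZT12. Its values were 2.37 to 3.08 (median 2.88) in controls and 1.47 to 2.46 (median 2.33) in knockouts at ZT16. The groups were apart at ZT8 and ZT12 and overlapped at ZT16. Its signal was 1.89-fold, 1.78-fold and 1.49-fold lower (log2 -0.92, -0.83 and -0.58, each with SE 0.14; adjusted p 4.2e-06, 1.4e-05 and 0.00121; exact two-sided permutation p 0.00216, 0.00216 and 0.00866). The probe lies at chr15:101993657-101993716 of mm9.

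Tmem97, a sterol-responsive membrane protein of the endoplasmic reticulum, was lower by more at the later times. Tmem97 was 4.72 to 4.87 (median 4.84) in controls and 4.17 to 4.94 (median 4.49) in knockouts at ZT8. It was 4.84 to 5.13 (median 4.97) in controls and 3.88 to 4.44 (median 4.16) in knockouts at ZT12. Its values were 4.36 to 4.75 (median 4.58) in controls and 3.40 to 3.76 (median 3.63) in knockouts at ZT16. At ZT8 the groups overlapped and 1 knockout lay above all controls, and there was no overlap later. Its signal was 1.22-fold, 1.74-fold and 1.91-fold lower (log2 -0.28, -0.80 and -0.93, each with SE 0.10; adjusted p 0.0309, 2.9e-07 and 1.7e-08; exact two-sided permutation p 0.0476, 0.00216 and 0.00216). The change of the effect from ZT8 to ZT16 was -0.65 (SE 0.15, adjusted p 0.00355, 4.31% of all genes called in that direction), and the F test gave 0.00802. Its probe lies at chr11:78355314-78355373 of mm9.

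Stard4, a soluble sterol carrier, was 1.30-fold, 1.37-fold and 1.47-fold lower (adjusted p 0.00205, 3.0e-04 and 2.3e-05), with no overlap at ZT8 and ZT16. Its next brightest probe gave 0.19, -0.08 and -0.97 (adjusted p 0.367, 0.701 and 8.7e-06), so the direction at ZT8 and the call at ZT12 depended on the probe. Scap and Tmem97 were the only genes of the 29 whose genotype effect was called to differ between ZT8 and ZT16 or by the F test. Of all genes, 9.74% and 8.46% were called in these comparisons. Between ZT8 and ZT12, and between ZT12 and ZT16, limma called 0 of 29 in each (1.25% and 1.96% of all genes, of which 0.689% and 0.864% downward), with 4 and 1 at an unadjusted p under 0.05.

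Time of day moved part of the list within each genotype. From ZT8 to ZT16, 9 genes were called in controls, 8 lower and 1 higher (13.2% and 13.4% of all genes). In knockouts 11 were called, 8 lower and 3 higher (13.4% and 15.5%). Counting both directions, 26.6% of all genes were called in controls and 28.9% in knockouts, so the control count lay near the share of all genes. Npc1 fell by 1.1 in controls and 0.72 in knockouts on the log2 scale, and Soat2 fell by 1.03 and 0.69. Stard4 fell by 0.71 and 0.89, and Sc5d fell by 0.59 and 0.53. Insig2 rose by 0.77 and 0.91. In knockouts Tmem97 fell by 0.91, Fdft1 fell by 0.71 and Hsd17b7 fell by 0.59, while Mvd rose by 0.90 and Tm7sf2 by 0.37. In controls Hmgcs1 fell by 0.84, Msmo1 fell by 0.84 and Idi1 fell by 0.58. Of these changes, those of Scap and Tmem97 were called to differ between the genotypes.

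Several of these calls lay near the threshold. Hmgcs1 and Idi1 in controls kept theirs only when control ZT8 replicate 5 or control ZT16 replicate 1 was the mouse left out (ranges -0.99 to -0.73 and -0.68 to -0.51). Msmo1 lost its call without control ZT8 replicate 1, 3, 4 or 6 or control ZT16 replicate 2, 3 or 5 (range -0.99 to -0.75). Mvd lost its call without knockout ZT8 replicate 2, 4 or 6 or knockout ZT16 replicate 1, 2, 5 or 6 (range 0.71 to 1.15), and Tm7sf2 without knockout ZT8 replicate 2, 4 or 6 or knockout ZT16 replicate 2 or 3 (range 0.29 to 0.45). Hsd17b7 lost its call without knockout ZT8 replicate 5 (range -0.70 to -0.48).

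Shorter steps gave fewer calls. From ZT8 to ZT12, 5 genes were called in controls, 4 lower and 1 higher (7.16% and 7.67% of all genes, 14.8% together), and 6 in knockouts, 5 lower and 1 higher (6.51% and 6.73%). The gene that rose in controls was Insig1, by 0.67 (adjusted p 0.0422), which lost its call without control ZT8 replicate 1, 2, 5 or 6 or control ZT12 replicate 1, 2, 3 or 4 (range 0.53 to 0.83). In knockouts it was Mvd, by 1.01 (0.0432), which lost its call without knockout ZT8 replicate 2, 4 or 6 or any knockout ZT12 mouse but replicate 4 (range 0.83 to 1.26). The knockout count was 3 without knockout ZT8 replicate 1, 2 or 5 or knockout ZT12 replicate 5, and 2 without knockout ZT12 replicate 6. From ZT12 to ZT16, 4 genes were called in controls, 3 lower and 1 higher (1.96% and 1.66%), and 3 in knockouts, all lower (5.52%, with 7.06% of all genes higher). The control count was 0 without control ZT12 replicate 6 or control ZT16 replicate 3 or 6, 1 without control ZT12 replicate 1 or 4 or control ZT16 replicate 2, and 2 without control ZT12 replicate 2.

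Some genotype calls at ZT8 rested on single mice. Idi1 lost its call without knockout ZT8 replicate 2, 4 or 6 or control ZT8 replicate 4, and its log2 difference ran from -0.79 to -0.47 over the mice left out in turn. Cyp51 lost it without knockout ZT8 replicate 2, 4 or 6 (range -0.90 to -0.56). Dhcr7 lost it without any of these 3 knockouts or control ZT8 replicate 1, 3, 4 or 6 (range -0.80 to -0.45), and Tmem97 without any of the 3 or control ZT8 replicate 1, 3 or 4 (range -0.36 to -0.20). Npc1 lost it without knockout ZT8 replicate 1, 2, 5 or 6 or control ZT8 replicate 1 or 4 (range 0.23 to 0.37). Mvk was called without control ZT8 replicate 5 or knockout ZT8 replicate 1, 3 or 5 (range -0.67 to -0.32). Fdft1 and Srebf2 were called without knockout ZT8 replicate 1 (ranges -0.40 to -0.22 and -0.29 to -0.16).

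At ZT12, Msmo1 kept its call only when control ZT12 replicate 5 was the mouse left out (range -0.83 to -0.65). Fdft1 lost its call without control ZT12 replicate 4 (range -0.55 to -0.36), and Srebf2 without knockout ZT12 replicate 4 or control ZT12 replicate 3 (range -0.30 to -0.23). At ZT16, Cyp51 lost its call without knockout replicate 1, 3, 4 or 5 or control replicate 1, 2 or 6 (range -0.74 to -0.56). Insig2 lost it without knockout replicate 1, 2, 3 or 4 or control replicate 2, 3 or 6 (range -0.53 to -0.34), and Hsd17b7 without knockout replicate 3 or 5 or control replicate 1, 5 or 6 (range -0.58 to -0.40). Hmgcs1 was called at ZT16 without knockout replicate 6 (range -0.81 to -0.49), and Lss without knockout replicate 6 or control replicate 3 (range -0.67 to -0.47). The genes named here kept their direction in every such fit.

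A second probe was measured for 19 of the 29 genes, and besides Mvk, Nsdhl, Stard4, Srebf2 and Npc1 it moved the call of 6 genes. By that probe Msmo1 was not called at ZT12 (-0.77, adjusted p 0.0528) and was called lower at ZT16 (-0.83, adjusted p 0.0389). Sc5d at ZT16 (-0.53, adjusted p 0.0634) and Insig2 at ZT16 (-0.44, adjusted p 0.0749) were not called. Fdft1 was called lower at ZT8 (-0.45, adjusted p 0.0209), Cyp51 at ZT12 (-0.68, adjusted p 0.00499) and Hmgcs1 at ZT16 (-1.22, adjusted p 0.015). These 6 genes kept their direction at each time by both probes.

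Arrays had been washed in 3 batches, each of which held mice of all 6 groups. Every called difference between the genotypes kept its sign within each batch except Scap at ZT12 and Mylip at ZT16. Scap was 0.33, 0.46 and -0.01 in batches 1, 2 and 3 at ZT12, where the last value came from 1 knockout and 2 controls. Mylip was -0.04, 0.71 and 0.59 at ZT16, where the first value came from 2 knockouts and 1 control. Over the batches and times Mvd lay between -2.72 and -1.17, Fdps between -2.12 and -1.06, Insig1 between -1.63 and -0.97, and Scarb1 between 0.72 and 1.03.

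Other genes of sterol handling were called in both directions. Of 41 such genes tested, 14 were called at ZT8 (6 higher, 8 lower), where 35.5% of all genes were called. At ZT12 19 were called (6 and 13) against 42.3%, and at ZT16 22 (9 and 13) against 40.0%, so the ZT8 and ZT12 counts lay near the share of all genes. The 41 genes had median log2 differences of -0.11, -0.09 and -0.08. Among 9 genes of SREBP processing and sterol-regulated degradation, 2, 1 and 1 were called higher and 3, 2 and 3 lower at the 3 times. For these and the smaller lists that follow, the shares of all genes were 16.7%, 19.6% and 20% higher and 18.7%, 22.7% and 20.1% lower. Rnf145, a ubiquitin ligase that responds to sterols, was 0.83 to 1.49 (median 1.22) in controls and 1.76 to 2.63 (median 1.88) in knockouts at ZT8, without overlap. It rose by 0.82, 1.19 and 1.27 on the log2 scale (adjusted p 3.7e-05, 7.7e-08 and 2.7e-08). Erlin1, which takes part in degradation at the endoplasmic reticulum, differed by 0.43, 0.07 and -0.24 (adjusted p 1.9e-04, 0.516 and 0.0283), and this change across times was called by the F test (0.00171).

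Among 6 genes of LXR and sterol efflux, 1, 2 and 4 were called higher and 0, 1 and 0 lower. Abcg1, a sterol exporter, was 0.07 to 0.22 (median 0.10) in controls and 0.97 to 2.07 (median 1.22) in knockouts at ZT8, without overlap. It rose by 1.25, 1.67 and 1.53 (adjusted p 2.6e-07, 9.9e-10 and 4.7e-09). Macrophages also express Abcg1, and 0, 3 and 1 of 4 macrophage markers were called higher at the 3 times. Their part in this rise was not tested. Abcg8, which exports sterol into bile with Abcg5, differed by -0.11, 0.35 and 0.98 (adjusted p 0.723, 0.173 and 2.9e-04), and the change of its effect from ZT8 to ZT16 was called (1.09, adjusted p 0.0132).

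Among 12 sterol carriers between membranes, 1, 1 and 1 were called higher and 3, 8 and 8 lower, and the count lower at ZT8 was near the share of all genes. Scp2, a sterol carrier and peroxisomal thiolase, fell by 1.01, 0.92 and 0.59 on the log2 scale (adjusted p 1.4e-08, 4.9e-08 and 6.8e-05), and Gramd1a, which moves sterol from the plasma membrane, rose by 0.32, 0.46 and 0.21 (adjusted p 2.3e-04, 8.2e-07 and 0.0103). Among 4 genes of esterification and storage, 2, 2 and 2 were called higher and 0, 1 and 1 lower. Nceh1, a cholesteryl ester hydrolase, rose by 1.24, 0.69 and 0.69 (adjusted p 3.9e-05, 0.011 and 0.0119), and Lipa, the lysosomal acid lipase, differed by -0.25, -0.60 and -0.49 (adjusted p 0.061, 2.7e-05 and 3.9e-04). Among 10 genes of the isoprenoid branch, which leaves the route near farnesyl diphosphate, 0, 0 and 1 were called higher and 2, 1 and 1 lower. Coq2, of ubiquinone synthesis, fell by 0.27, 0.38 and 0.44 (adjusted p 0.00319, 6.4e-05 and 9.0e-06), and Dhdds, of dolichol synthesis, differed by -0.18, 0.01 and 0.32 (adjusted p 0.109, 0.934 and 0.00388).

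Markers of cell types moved with genotype as well, and their part in the results was not tested. Of 6 hepatocyte markers, Alb fell by 0.41, 0.35 and 0.39 and Fah fell by 0.48, 0.56 and 0.81 on the log2 scale, all called, and Hnf4a and Tat were called higher at ZT12. The summed hepatocyte signal, as a multiple of the array's 75th percentile, was 2140 to 2540 in controls and 1470 to 2270 in knockouts at ZT8, 2490 to 2710 in controls and 1930 to 2450 in knockouts at ZT12 and 2460 to 2940 in controls and 2020 to 2360 in knockouts at ZT16. Of 4 macrophage markers, 0, 3 and 1 were called higher, and the sum was 17.7 to 31.1 in controls and 24.1 to 59.9 in knockouts at ZT8, 17.6 to 44.7 in controls and 25.5 to 77.8 in knockouts at ZT12 and 20.4 to 47.7 in controls and 33.7 to 81.4 in knockouts at ZT16. Of 4 endothelial markers, 0, 3 and 2 were called higher, and the sum was 16.4 to 20.2 in controls and 16 to 22.2 in knockouts at ZT8, 13.9 to 18.5 in controls and 18.6 to 25.6 in knockouts at ZT12 and 14.2 to 21.7 in controls and 19.8 to 24.4 in knockouts at ZT16. All markers of these 3 lists were well above background on all 36 arrays.

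Of 3 T and B cell markers measured, 2, 2 and 2 were called higher and 0, 1 and 0 lower, with sums of 2.17 to 2.65 in controls and 2.33 to 3.39 in knockouts at ZT8, 1.89 to 3.22 in controls and 1.81 to 2.99 in knockouts at ZT12 and 1.84 to 2.72 in controls and 1.89 to 2.9 in knockouts at ZT16. Of 3 red cell markers, 0, 2 and 1 were called higher and 1, 1 and 1 lower, with sums of 215 to 591 in controls and 180 to 369 in knockouts at ZT8, 155 to 328 in controls and 285 to 659 in knockouts at ZT12 and 210 to 338 in controls and 361 to 617 in knockouts at ZT16. Of 2 intestinal genes measured, Vil1 was called higher and Fabp2 lower each time, with sums of 21.1 to 38.3 in controls and 2.19 to 4.66 in knockouts at ZT8, 28.0 to 45.9 in controls and 1.66 to 3.51 in knockouts at ZT12 and 11.7 to 38.3 in controls and 1.39 to 5.28 in knockouts at ZT16. Bile duct genes were called higher for 0, 0 and 1 of 4 and stellate and fibroblast genes for 0, 1 and 1 of 6, and fat genes were called lower for 0, 1 and 0 of 3. Only 1 of the 4 bile duct genes and 1 of the 3 fat genes were well above background on all arrays.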

How the data were processed

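Spot values are fluorescence intensity units, deposited as Feature Extraction output (version 10.10.1.1, per the submitters' processing notes). Per the file headers, the processed signal is background subtracted. Spot flags for background, saturation and outliers are deposited as other columns holding 0 or 1. A further table deposited by the authors gives 32801 probes on a log2 scale, and its columns had identical sorted values. How it was made is not given in the sources used here.

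From log2 of the processed signal, the 75th percentile of its own array was subtracted. Outlier spots were left out, spots of a probe were averaged, and probes well above background on at least 6 of 36 arrays were kept (34771, of which 93 lacking a value were dropped). No spot was saturated. The probe with the highest mean stood for a gene. Probe positions are those of the files, on mm9, and the exon read was not determined. limma 3.58.1 in R 4.3.3 fitted 6 group means and wash batch (3 batches of 11 to 13 arrays, 9 slides of 2 to 5), with 28 residual degrees of freedom and Benjamini-Hochberg adjustment per comparison. The number of arrays limits the precision. The fit was also run on simulated data with independent noise for each gene. That run was a check of the code and does not bear on the calls reported.

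The members and gene lists were chosen with earlier results of these data known. All members are named; given in full are the 6 with the smallest adjusted p, those called higher, those past the F test, and Insig1, Insig2, Srebf2 and Scap. From each further list the 2 genes with the smallest p are named. Alternatives covered background correction, normalization, the authors' table, filters, wash batch, slide, array weights, the groups fitted, a replicate block, second probes and each mouse left out.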

Additional observations from a re-analysis of the deposited data

Results flagged for a closer look

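Each gene's 6 values in each group were searched for a mouse far from the others of its group (Dixon's limit for 6 values, 0.625). Of 174 groups searched 9 held such a value, where chance gives about 1 in 20, or 8.7. The values are log2 signals relative to the array's 75th percentile.

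Among enzymes, Mvk was 2.96 on control ZT12 replicate 5, with the others at 3.67 to 3.99. Fdft1 was 3.96 on control ZT16 replicate 3, with the others at 4.42 to 4.68. Hsd17b7 was 3.14 on knockout ZT12 replicate 6, with the others at 3.45 to 3.59. Ebp was 7.77 on knockout ZT16 replicate 6, with the others at 7.30 to 7.42. Sc5d was 6.54 on knockout ZT8 replicate 1 (others 5.72 to 6.00) and 5.83 on knockout ZT16 replicate 6 (others 5.16 to 5.36).

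Npc2 was 2.43 on knockout ZT8 replicate 2, with the others at 2.63 to 2.75. Soat2 was 2.42 on knockout ZT8 replicate 3 (others 2.93 to 3.12) and 1.47 on knockout ZT16 replicate 6 (others 2.25 to 2.46). Knockout ZT16 replicate 6 held 3 of the 9 values.

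The difference between knockout and control was called to change between times for 2 of the 29 genes. Of all genes, 9.74% were called from ZT8 to ZT16 and 8.46% by the F test, so this count lay near those shares. For Scap the difference rose by 0.49 from ZT8 to ZT16, with an adjusted p of 0.0492 in limma's F test over the 3 times. That F test call was lost when any 1 of 29 of the 36 mice was left out. For Tmem97 the difference changed by -0.65, with an adjusted p of 0.00802 in the F test.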

How the results depend on the processing

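Counts of called members moved by over 1.5 times under these alternatives. Fitting only the groups compared gave 13 at ZT8, 15 for ZT16 minus ZT8 in controls, 1 for ZT16 minus ZT12 in controls and 2 for ZT12 minus ZT8 in knockouts. Without the filter on dim probes, the last 2 counts were 1 and 3, and the F test called 1. Slide as a fixed block gave 0 for ZT16 minus ZT12 in controls and 1 for the F test, which also called 1 without the wash batch term and 4 with array weights. Quantile normalization and array weights each called 1 for the genotype effect at ZT12 minus ZT8. The next brightest probe, available for 19 members, called 11 at ZT12 and 15 at ZT16. The brightest probes of the same 19 members called 14 and 15. The looser motif TCANNCCAC was in 2 of 30 promoters (6.67%, against 4.07% for genes tested), those of Hmgcs1 and Mylip. The cause of these shifts was not tested, except that fewer members had a second probe.

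With each mouse left out in turn, counts ran from 16 to 23 at ZT8, 21 to 27 at ZT12 and 20 to 25 at ZT16. They ran from 0 to 4 for ZT16 minus ZT12 in controls, 2 to 7 for ZT12 minus ZT8 in knockouts, 0 to 1 for the genotype effect at ZT12 minus ZT8, and 1 to 2 for the F test. Of values called in the reported fit, 5 turned sign: by the next brightest probe, Srebf2 at ZT12 (0.224), Stard4 at ZT8 (0.188) and Npc1 at ZT8 (-0.255); within a wash batch, Scap at ZT12 (-0.01) and Mylip at ZT16 (-0.04). Over every alternative, 12 of 21, 17 of 23 and 18 of 23 called members kept their call at ZT8, ZT12 and ZT16. Quantile normalization and the authors' table each lost Dhcr7 at ZT8 and Fdft1, Msmo1 and Srebf2 at ZT12. Both also lost Cyp51, Hsd17b7 and Insig2 at ZT16, and the authors' table lost Idi1 at ZT8.

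Deviations of same-numbered mice from their group means had correlations of -0.16 to 0.15, 4 of 18 over 0.1. Of the 18 knockouts, 5 were closest to the control of their own number. Whether replicate numbers tie mice together was not tested. With the replicate block, counts were 21, 22 and 22, with Msmo1 at ZT12 and Cyp51 at ZT16 no longer called, and the F test called 1. Within single wash batches, groups held too few arrays for counts of calls.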
